A study of Pinus pinaster with 24 samples.

Results

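Of 51211 transcripts measured in maritime pine (Pinus pinaster) root tips, 40 had the most strongly lower mean levels with nitrate in all 4 dissected areas at once. They were selected on these same values. For each area the change was the mean of log2(CPM + 0.5) in 3 nitrate libraries minus that in 3 KCl libraries. Transcripts were ordered by the least negative of their 4 changes, and the 40 lowest were taken. CPM stands for the authors' scaled read counts, and 0.5 is a pseudocount that keeps values of 0 on the log scale. The nitrate changes of these transcripts, and any calls made from them, therefore describe the choice, and nothing is supported with them.

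Seedlings of 1 month were kept for 3 days on a nutrient solution without nitrogen and then irrigated with 80 mL of 3 mM KNO3 (nitrate) or 3 mM KCl, the control for the potassium. Root tips were taken after 2 h. From sections of 30 µm, a laser cut out pieces by their position: cap, meristem, developing cortex and developing vascular tissue. All seedlings came from seed of a single provenance, both groups had been without nitrogen, and 3 libraries per area and solution make 24. The labels number them by experiment and do not say how many seedlings an experiment pooled.

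Nitrate is a nutrient and a signal in roots. In Arabidopsis, a membrane protein that both transports and senses nitrate, together with NLP transcription factors, changes the expression of many genes soon after nitrate arrives. The root cap covers and protects the growing tip and senses gravity, the meristem supplies new cells, the cortex lies outside the vascular tissue, and the vascular tissue carries water and solutes. Conifers often take up ammonium more readily than nitrate. None of the 51211 transcript IDs could be paired with a gene name from the sources used here. No role, pathway or sequence is therefore given for any transcript, and the dissected areas could not be checked against marker genes.

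The reads recovered from the scaled values amounted to 45262154 to 51517525 per library, and a single read was worth 0.0171 to 0.0247 CPM. A detection limit of 3 reads thus lay below 0.1 CPM in every library, which covers counting error only. Libraries with the same solution and experiment number deviated together across areas, with correlations of 0.279 to 0.694 across transcripts in all 36 pairs of areas. The 4 areas of an experiment are therefore read as a shared set of root tips and not as independent repeats. Fits without a term for the experiment, among them that of nitrate against KCl, still took all libraries as independent. This pairing was read from the values, and the labels do not state it. KCl experiment 1 stood apart: 56 transcripts exceeded all 5 other experiments by more than 2 on the log2 scale in every area, against 6 to 19 for each nitrate experiment, and 11 and 8 for KCl experiments 2 and 3. The main results that rest on it are given with and without it.

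The 40 transcripts were scarce with nitrate and moderately abundant with KCl, but not in every KCl experiment. Their mean CPM over 12 libraries had a median of 0.557 with nitrate and 23.9 with KCl, beside 4.45 with nitrate and 4.34 with KCl over all transcripts. The median change was -3.32 in the cap, with a range of -7.20 to -1.97. It was -2.96 in meristem (-4.87 to -2.04), -2.77 in cortex (-7.54 to -1.95) and -2.56 in vascular tissue (-5.08 to -1.89). These medians were -2.54, -1.88, -1.55 and -1.87 in cap, meristem, cortex and vascular tissue without KCl experiment 1. Over all transcripts the median changes lay between -0.01 in the meristem and 0.02 in the vascular tissue, and 14.1% of them were lower with nitrate in all 4 areas. A change of a transcript with no nitrate read depends on the pseudocount. With 8, 7, 6 and 6 such transcripts in cap, meristem, cortex and vascular tissue set at the bound from 3 reads per library, the medians were -3.73, -3.05, -2.92 and -2.64.

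With nitrate, 5 of the 40 had no read in any of the 12 libraries, and 16 stayed below 1 CPM in every library. Only 7 of the 40 reached 5 CPM in any nitrate library. With KCl, 25 of the 40 were above 3 reads in all 12 libraries. A further 6 had no read in any area of a whole KCl experiment, which was experiment 2 for 5 of them and experiment 3 for pp_14395. All 40 passed the filter used for tests, at least 1 CPM in at least 3 libraries, as did 51044 of the 51211 transcripts.

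For most of the 40, the KCl experiments differed from each other far more than they did for transcripts in general. The standard deviation between experiments of the mean log2 level over areas had a median of 0.16 with nitrate and 2.66 with KCl for the 40 transcripts, beside 0.16 with nitrate and 0.19 with KCl over all transcripts. At levels as low as those with nitrate, the pseudocount of 0.5 narrows the spread on this scale, so the nitrate value says little of how alike those libraries were. Summed over the 40, nitrate experiment 1 held 29.9, 25.5, 21.0 and 46.3 CPM in cap, meristem, cortex and vascular tissue. Nitrate experiment 2 held 74.9, 119, 108 and 116 CPM in the same order of areas, of which pp_84930 alone gave 35.0, 87.1, 92.7 and 82.9 CPM. Nitrate experiment 3 held 22.2, 23.5, 13.1 and 62.3 CPM. KCl experiment 1 held 5011, 3224, 2228 and 1584 CPM, KCl experiment 2 held 567, 428, 475 and 538 CPM, and KCl experiment 3 held 493, 416, 485 and 467 CPM. Every KCl sum was above every nitrate sum, which the rule makes likely, and those of KCl experiment 1 were the highest in each area.

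**Figure D1:**
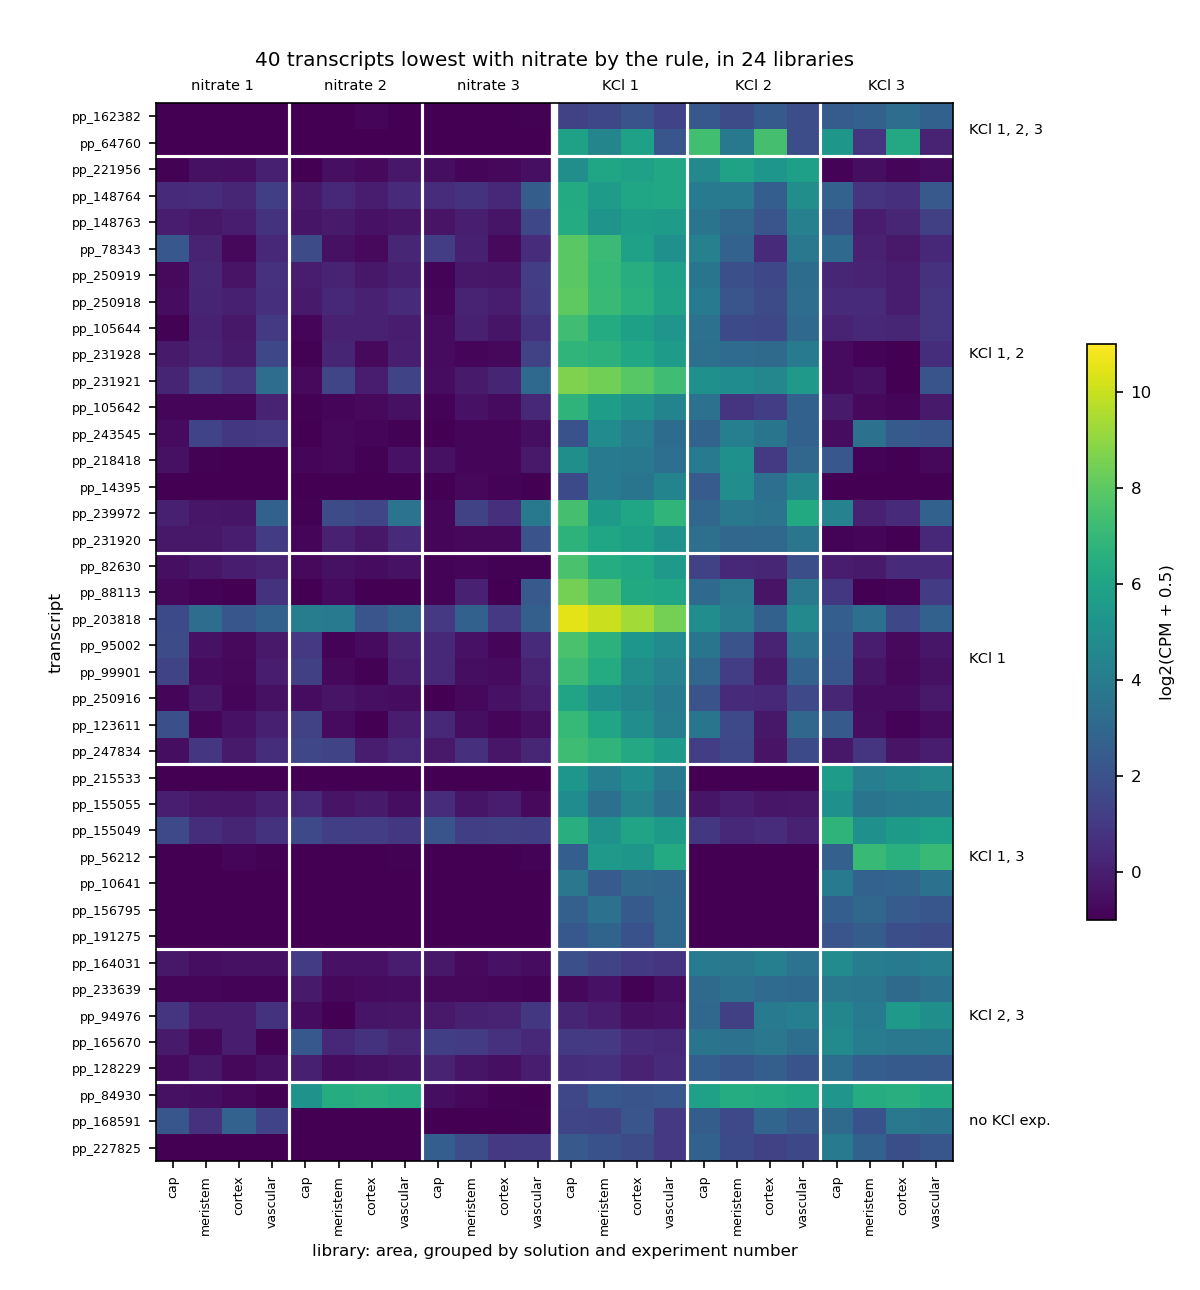
Level of each of the 40 transcripts (rows, grouped by the KCl experiments in which they were high) in each of the 24 libraries (columns, by experiment and area, nitrate left of KCl), as log2(CPM + 0.5) on the colour scale. Nitrate columns are mostly dark, and in the KCl columns 35 of the 40 rows are high in 1 or 2 of the 3 experiments. An experiment was counted only where a row was high in all 4 areas, and some rows are high in a further experiment in some areas.

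The label of a nitrate-lowered transcript therefore holds for the group means, and for few of the 40 does it hold for every experiment. The nitrate libraries lay wholly below the KCl libraries for 20 of the 40 in cap, 15 in meristem, 13 in cortex and 8 in vascular tissue. Over all transcripts this was so for 3.61% in cap, 5.12% in meristem, 6.1% in cortex and 7.73% in vascular tissue. The rule used these values, so nothing is read from the difference. In all 4 areas the groups did not overlap for 6 of the 40 (pp_164031, pp_162382, pp_82630, pp_64760, pp_243545 and pp_128229), beside 61 of all transcripts (0.119%). A further 2 were separate in 3 areas, 9 in 2 areas and 8 in 1 area, and 15 overlapped in every area.

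The 40 transcripts fell into groups by which KCl experiments carried the higher level. An experiment was counted where its library lay above all 3 nitrate libraries of the same area by more than 1 on the log2 scale, in each of the 4 areas. A transcript could thus be high in a further KCl experiment in some areas, as pp_88113 was in experiment 2 in all but the cortex. By this count 2 transcripts were high in all 3 KCl experiments, 15 in experiments 1 and 2, 8 in experiment 1 only, 7 in experiments 1 and 3, and 5 in experiments 2 and 3. The remaining 3 were high in no KCl experiment, because a nitrate experiment was high as well. Over all transcripts, 2 were high in all 3 KCl experiments and both are among the 40. The mirrored rule, which took the 40 transcripts most raised with nitrate in all 4 areas, gave 4 that were high in all 3 nitrate experiments, beside 5 of all transcripts. The margin of 1 matters: with no margin 6 of the 40 were high in all 3 KCl experiments, and with a margin of 2 it was 1.

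Of the 2 transcripts that were high in all 3 KCl experiments, pp_162382 was the more even across areas. With nitrate it had no read in 10 of 12 libraries and 0.0604 CPM at most. With KCl experiments 1, 2 and 3 it had 1.97, 4.43 and 5.04 CPM in the cap, 2.49, 2.82 and 6.06 CPM in the meristem, 3.69, 4.85 and 9.37 CPM in the cortex, and 2.15, 3.03 and 6.07 CPM in the vascular tissue. The groups were apart in each area by a wide margin, and KCl experiment 1 was the lowest of the 3 in all areas. Its changes were -3.03, -3.01, -3.54 and -2.96 in cap, meristem, cortex and vascular tissue. Without KCl experiment 1 its least negative change was -3.22.

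The other transcript, pp_64760, had no read in any nitrate library. With KCl experiments 1, 2 and 3 it had 58.3, 165 and 40.5 CPM in the cap and 58.8, 178 and 75.6 CPM in the cortex. It had far less in the inner areas, with 21.7, 14.1 and 1.28 CPM in the meristem and 4.14, 3.10 and 0.652 CPM in the vascular tissue. Against the limit of 3 reads per library, its mean was at least 1324-fold lower with nitrate in the cap, at least 223-fold in the meristem, at least 1771-fold in the cortex and at least 46.6-fold in the vascular tissue. These bounds compare group means and cover counting error only.

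The 15 transcripts that were high in KCl experiments 1 and 2 include the transcript ranked first, pp_221956. With nitrate its lowest, median and highest values over 12 libraries were 0, 0.194 and 0.538 CPM. With KCl it had 29.8, 64.9, 58.5 and 72.2 CPM in cap, meristem, cortex and vascular tissue of experiment 1, and 24.6, 59.4, 39.03 and 55.1 CPM in experiment 2. In KCl experiment 3 it had only 0.0473, 0.180, 0.0817 and 0.163 CPM. The levels of KCl experiment 3 lay among those of the nitrate libraries, and the groups overlapped in all 4 areas.

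pp_148764 and pp_148763, which have adjacent ID numbers, were also high in these experiments. With nitrate pp_148764 ranged from 0.387 to 5.34 CPM around a median of 0.874 CPM, and pp_148763 from 0.242 to 2.54 CPM around 0.385 CPM. In KCl experiment 1 pp_148764 had 81.4, 49.1, 66.03 and 72.5 CPM in cap, meristem, cortex and vascular tissue, in experiment 2 it had 15.6, 15.5, 5.51 and 29.9 CPM, and in experiment 3 it had 6.29, 1.33, 1.08 and 4.53 CPM. The KCl experiments stood in the order 1, 2, 3 in every area. The values of pp_148763 in the same order were 82.0, 36.0, 51.7 and 48.2 CPM, then 11.6, 7.64, 4.04 and 17.99 CPM, then 3.81, 0.431, 0.735 and 1.96 CPM. The groups did not overlap in 3 areas for pp_148764 and in 2 areas for pp_148763. Their least negative changes without KCl experiment 1 were -1.42 for pp_148764 and -1.504 for pp_148763.

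pp_78343 and pp_250919 had steeper differences between the KCl experiments. With nitrate, pp_78343 ranged from 0.101 to 4.30 CPM around a median of 0.684 CPM. In KCl libraries its level was 240.2, 145, 57.6 and 31.5 CPM in cap, meristem, cortex and vascular tissue of experiment 1. It had 18.1, 6.41, 0.887 and 13.5 CPM in experiment 2, and 7.95, 0.557, 0.388 and 0.797 CPM in experiment 3. The level in KCl experiment 1 was higher in the cap than in any other area. With nitrate, pp_250919 ranged from 0.0463 to 1.75 CPM around a median of 0.404 CPM. With KCl it had 239.7, 130.1, 88.7 and 57.0 CPM in experiment 1, 12.1, 3.29, 2.57 and 9.005 CPM in experiment 2, and 0.709, 0.629, 0.449 and 1.16 CPM in experiment 3. Without KCl experiment 1 the least negative changes were -0.86 for pp_78343 and -0.96 for pp_250919.

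Over the 15 transcripts of this group, KCl experiment 1 exceeded KCl experiment 2 by a median of 2.67 on the log2 scale, with a range of -0.38 to 4.204, and it was above it in all 4 areas for 12 of 15. Among them pp_243545 differed in its distribution over areas. With nitrate it ranged from 0 to 2.16 CPM around a median of 0.0782 CPM. With KCl experiments 1, 2 and 3 it had 3.505, 6.48 and 0.166 CPM in the cap, 27.4, 17.5 and 10.5 CPM in the meristem, 16.9, 12.3 and 4.78 CPM in the cortex, and 9.07, 6.08 and 4.09 CPM in the vascular tissue. The groups did not overlap in any area, though in the cap KCl experiment 3 (0.166 CPM) was close to nitrate experiment 1 (0.143 CPM).

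The remaining transcripts high in KCl experiments 1 and 2 are pp_250918, pp_105644, pp_105642, pp_231928, pp_231921, pp_231920, pp_218418, pp_14395 and pp_239972. pp_231921 had the highest level of these, with 161 to 404.5 CPM over the areas of KCl experiment 1, 22.9 to 43.8 CPM in experiment 2 and 0 to 3.84 CPM in experiment 3, against 0.116 to 9.40 CPM with nitrate. Its nitrate range thus reached above its range in KCl experiment 3. pp_14395 had no read in KCl experiment 3, against 2.79 to 20.7 CPM in KCl experiment 1 and 4.95 to 29.2 CPM in KCl experiment 2, and 0.103 CPM at most with nitrate.

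The 8 transcripts high in KCl experiment 1 only include pp_203818, which had the highest KCl mean of the 40 in every area. With nitrate experiments 1, 2 and 3 it had 2.73, 16.4 and 1.48 CPM in the cap, 9.35, 15.2 and 6.10 CPM in the meristem, 4.06, 3.99 and 1.5 CPM in the cortex, and 6.22, 6.88 and 5.70 CPM in the vascular tissue. With KCl experiments 1, 2 and 3 it had 1463, 28.5 and 5.58 CPM in the cap, 1043, 16.2 and 10.1 CPM in the meristem, 656, 6.05 and 2.55 CPM in the cortex, and 360.2, 24.5 and 6.05 CPM in the vascular tissue. The groups overlapped in every area, and KCl experiment 3 lay within the nitrate range in every area. Its KCl mean in the cap, 499 ± 835 CPM (SD, n = 3), against 6.87 ± 8.27 CPM with nitrate (SD, n = 3), thus rests on 1 library. Without KCl experiment 1 its least negative change was -0.38.

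pp_82630 and pp_88113 were ranked highest among these 8. With nitrate, pp_82630 ranged from 0.0185 to 0.631 CPM around a median of 0.187 CPM. In KCl libraries it reached 185, 85.9, 73.5 and 44.7 CPM in cap, meristem, cortex and vascular tissue of experiment 1, 2.12, 0.767, 0.717 and 3.23 CPM in experiment 2, and 0.449, 0.413, 0.837 and 0.851 CPM in experiment 3. The groups did not overlap in any area, but experiment 3, and experiment 2 in meristem and cortex, were close to the nitrate values. In the cap and the vascular tissue experiment 2 was well above the nitrate values, which reached 0.214 and 0.631 CPM there. Without KCl experiment 1 the least negative change of pp_82630 was -0.62. With nitrate, pp_88113 ranged from 0 to 4.60 CPM around 0.0424 CPM. Its KCl values were 364, 203, 76.8 and 66.3 CPM in experiment 1, 8.10, 13.5, 0.264 and 13.7 CPM in experiment 2, and 1.40, 0, 0.0408 and 1.61 CPM in experiment 3. The least negative change of pp_88113 was -0.36 without KCl experiment 1. In KCl experiment 1 both had the same order of areas, with the cap highest and the vascular tissue lowest.

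The others of this group were pp_95002, pp_99901, pp_250916, pp_123611 and pp_247834. In KCl experiment 1 their levels ran from 15.4 CPM, the lowest value of pp_250916, to 188 CPM, the highest of pp_95002. Over the 8 transcripts KCl experiment 1 exceeded KCl experiment 2 by a median of 4.29 on the log2 scale (3.49 to 5.53), and it was above both other KCl experiments in all 4 areas for 8 of 8, which the grouping itself makes likely. Without KCl experiment 1 the least negative change of pp_247834 turned to 0.25, so that its level was no longer lower with nitrate in every area.

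The 7 transcripts high in KCl experiments 1 and 3 were low or without a read in KCl experiment 2. pp_215533, at rank 2, had no read in any nitrate library. With KCl it had 38.6, 17.8, 27.9 and 13.9 CPM in cap, meristem, cortex and vascular tissue of experiment 1 and 47.3, 17.1, 20.7 and 24.8 CPM in experiment 3, and no read in any area of experiment 2. KCl experiment 2 thus equalled the nitrate libraries in every area. pp_155055 ranged from 0.114 to 0.926 CPM with nitrate around a median of 0.395 CPM. Its KCl values were 28.1, 10.4, 19.8 and 11.1 CPM in experiment 1, 0.302, 0.484, 0.321 and 0.346 CPM in experiment 2, and 32.1, 11.8, 13.9 and 15.7 CPM in experiment 3.

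The same presence and absence was seen in pp_56212, pp_10641, pp_156795 and pp_191275, which had no read in KCl experiment 2, and at a higher level in pp_155049, which had 0.584 to 1.40 CPM there. With nitrate, pp_10641, pp_156795 and pp_191275 had no read in any library and pp_56212 had 0.0808 CPM at most. pp_155049 ranged from 0.667 to 3.82 CPM with nitrate, against 35.3 to 93.1 CPM in KCl experiment 1 and 32.5 to 111 CPM in KCl experiment 3. In this group KCl experiments 1 and 3 were alike, with a median difference of -0.09 on the log2 scale (-0.95 to 0.47), and KCl experiment 1 exceeded KCl experiment 2 by a median of 4.26.

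The 5 transcripts high in KCl experiments 2 and 3 were pp_164031, pp_233639, pp_94976, pp_165670 and pp_128229. pp_164031, at rank 3, had 0.1197, 0.241 and 1.65 CPM as lowest, median and highest values with nitrate. Its KCl values were 3.31, 2.25, 1.54 and 1.33 CPM in cap, meristem, cortex and vascular tissue of experiment 1, 14.2, 13.3, 17.5 and 11.2 CPM in experiment 2, and 27.1, 16.3, 14.4 and 17.3 CPM in experiment 3. The groups did not overlap in any area, and the level of experiment 1 lay between nitrate and the other KCl experiments. Leaving out KCl experiment 1 made its changes larger in size, with -4.12 as the least negative. pp_233639 was at 0.0211 to 0.241 CPM in KCl experiment 1, against 8.05 to 11.1 CPM in experiment 2 and 8.47 to 13.4 CPM in experiment 3, and it ranged from 0.0371 to 0.426 CPM with nitrate.

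The last 3 transcripts were above 1 CPM in all KCl libraries and also in all areas of 1 nitrate experiment. pp_84930 had 35.0, 87.1, 92.7 and 82.9 CPM in cap, meristem, cortex and vascular tissue of nitrate experiment 2, and no more than 0.238 CPM in nitrate experiments 1 and 3. With KCl it had 2.44, 4.47, 3.80 and 4.22 CPM in experiment 1, 57.5, 85.2, 79.0 and 67.2 CPM in experiment 2, and 38.1, 85.9, 91.8 and 77.5 CPM in experiment 3. Nitrate experiment 2 was above KCl experiments 2 and 3 in meristem, cortex and vascular tissue, and below both in the cap. pp_168591 had 4.18, 1.16, 6.36 and 2.17 CPM in nitrate experiment 1 and at most 0.0191 CPM in the other nitrate experiments, against 1.498 to 13.5 CPM over the KCl libraries. pp_227825 had 5.44, 3.13, 1.48 and 1.56 CPM in nitrate experiment 3 and no read in the other nitrate experiments, against 1.52 to 15.6 CPM over the KCl libraries.

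**Figure D2:**
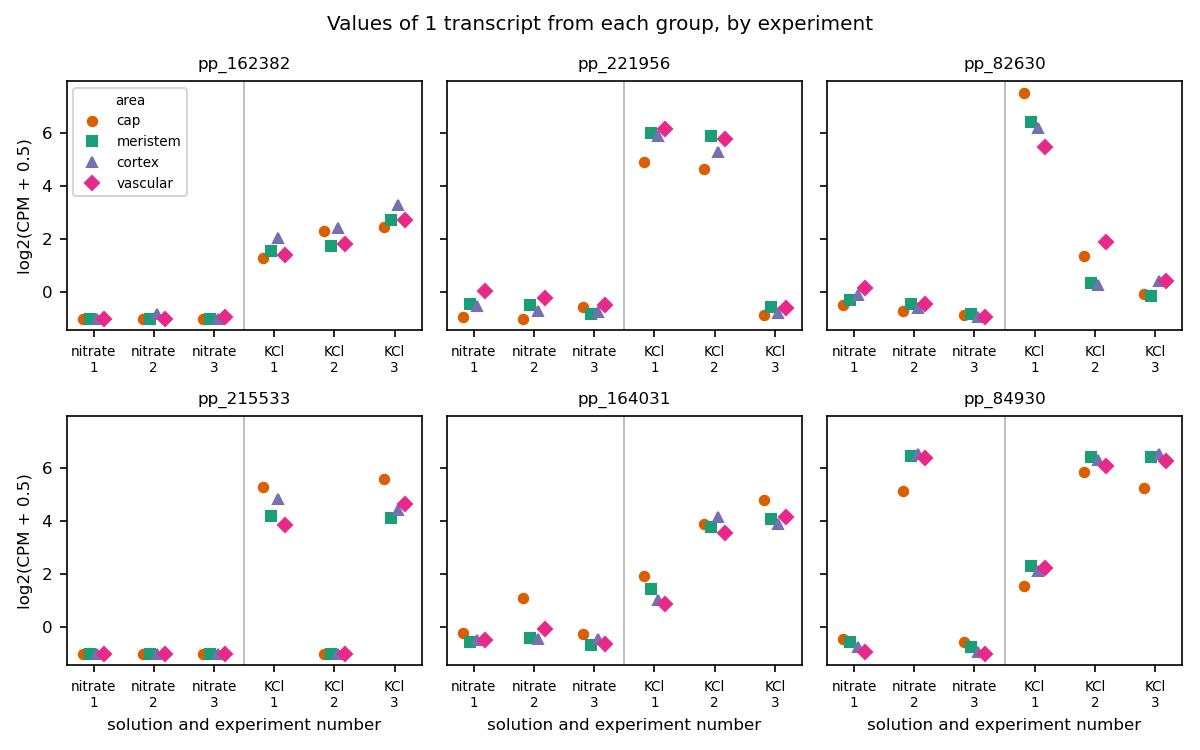
Levels of 6 transcripts, 1 from each group, as log2(CPM + 0.5) by experiment, nitrate left of KCl, with the 4 areas of an experiment as separate points. The areas of an experiment lie near each other and the KCl experiments at different heights, as for pp_215533 with no read in KCl experiment 2.

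limma was fitted to the change of the group means over all 51044 transcripts that passed the filter, with no term for the experiment. Since the 40 were ranked by these same changes, calls among them are no test of them. A call means an adjusted p (Benjamini-Hochberg) below 0.05. Of the 40, limma called 2 lower with nitrate in cap (0.214% of all tested), 3 in meristem (0.0411%), 2 in cortex (0.047%) and 1 in vascular tissue (0.0353%). pp_162382 was called in all 4 areas, pp_64760 in all but the vascular tissue and pp_243545 in the meristem. The other 37 were not called in any area. Fewer cells of a type and less RNA per cell cannot be told apart in these dissected pieces. A difference between solutions cannot be told apart from one between sets of root tips where only 1 or 2 of the 3 KCl experiments carry it.

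How far the choice depends on single experiments was read by applying the rule again without each. Without nitrate experiment 1, 2 or 3, the new list of 40 kept 34, 32 or 34 of the transcripts. Without KCl experiment 1, 2 or 3, it kept 18, 27 or 26. Without KCl experiment 1 the median of the least negative change was -1.46, against -2.40 with all libraries, and 39 of the 40 were still lower with nitrate in all 4 areas. Only 25 of the 40 were then lower by at least 1 in each area. The same median was -2.28 without KCl experiment 2 and -3.08 without KCl experiment 3. Each new list held 2 transcripts that were high in all 3 KCl experiments, which is as many as were found among all transcripts with every library counted.

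The rule was also applied to 2 nitrate and 2 KCl experiments, and the 40 transcripts so chosen were read in the experiments left out, for all 9 combinations. These libraries took no part in the choice, but the combinations share libraries and the 4 areas of an experiment go together. Where KCl experiment 1 was left out for reading, 16 to 21 of the 40 were lower with nitrate in all 4 areas, beside 12.9% to 15.9% of all transcripts. Where KCl experiment 2 was left out, 19 to 20 of the 40 were, beside 12.1% to 14.1% of all. Where KCl experiment 3 was left out, 6 to 9 of the 40 were, which is 15% to 22.5%, beside 10.7% to 11.7% of all. A change of more than 1 in all 4 areas was seen in 11 to 12, 10 to 16 and 2 to 3 of the 40 for KCl experiments 1, 2 and 3, beside 1.32% to 1.43%, 0.687% to 0.754% and 0.531% to 0.654% of all transcripts. The median least negative change of the 40 so chosen was -0.04 to 0, -0.06 to 0 and 0.32 to 0.47 in the same order. Over all transcripts it was 0.35 to 0.49. Where areas move together, 1 pair of experiments tends to give all 4 the same sign. The share of all transcripts is therefore no measure of what would be seen without an effect of nitrate.

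**Figure D3:**
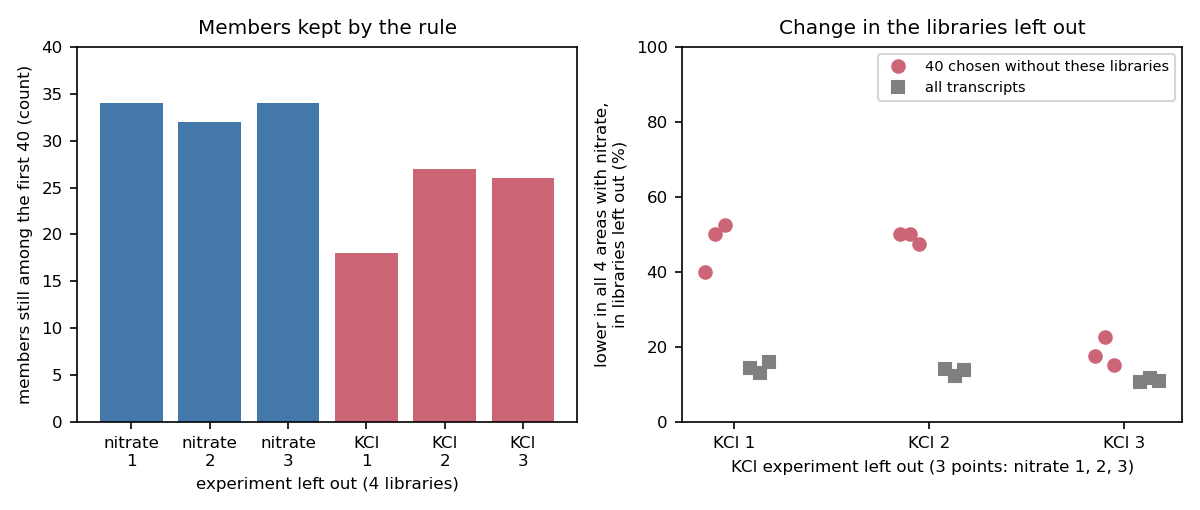
Left, number of the 40 transcripts that the rule still chose after leaving out each experiment (count, nitrate experiments left of KCl experiments). Right, share lower with nitrate in all 4 areas in the experiments left out (%), for the 40 chosen without them (circles) and all transcripts (squares), with 3 points per KCl experiment, 1 for each nitrate experiment. The bars are lowest without KCl experiment 1, with 18 kept, and the circles are lowest for KCl experiment 3, at 15% to 22.5%.

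Differences between areas were tested within the 12 KCl libraries, a contrast that the rule did not use, although it required the transcripts to be above their nitrate level in each area. Without a term for the experiment, limma's F test called 3 of the 40 as different between areas (71.7% of all tested transcripts), namely pp_64760, pp_243545 and pp_227825. Against the mean of the other areas it called 3 of the 40 in cap (68.8% of all), 0 in meristem (32.7%), 1 in cortex (14%) and 1 in vascular tissue (47.6%). In the meristem 2 of the 40 had an unadjusted p below 0.05 (23378 of all 51044 tested), and edgeR's count test called 0 (25.7% of all). These counts were below the shares of all transcripts, and in this fit the spread between KCl experiments is part of the error.

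With the experiment number as a block, limma's F test called 18 of the 40 (80% of all tested). It called 23 of the 40 in cap (75.1% of all), 4 in meristem (42.7%), 8 in cortex (21.3%) and 2 in vascular tissue (55.3%). In the cap, 18 of the 23 were higher than the other areas together and 5 lower, beside 36.1% higher and 39% lower over all transcripts. The median difference of the 40 was 0.65 in cap, -0.13 in meristem, -0.34 in cortex and -0.05 in vascular tissue, on the log2 scale, and it was positive for 31, 14, 7 and 17 of the 40. In edgeR's fits the medians kept their sign in cap and cortex, and that of the meristem was 0.16 without the block and -0.27 with it, and that of the vascular tissue -0.46 and 0.06. The direction in these 2 areas also turned with single experiments. limma's median without KCl experiment 1 was 0.34 in the vascular tissue, with 26 of the 40 positive, and -0.37 in the meristem. Without KCl experiment 3 it was 0.05 in the meristem, with 22 positive. The counts depend on single experiments. Without KCl experiment 1, 2 or 3 the blocked test called 13, 20 or 13 of the 40 in the cap (69.4%, 66% and 64.5% of all). By the F test it called 15, 17 or 6 (69.6%, 63.4% and 63.7% of all).

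pp_64760 had the largest differences between areas (F test, adjusted p = 0.00105 without the block and 7.69e-05 with it, limma). Its level exceeded the mean of the other areas by 2.53 ± 0.75 (SE) in the cap and 2.98 ± 0.75 in the cortex, and its differences were -3.85 ± 0.75 in the vascular tissue and -1.66 ± 0.75 in the meristem. The meristem difference was called only with the block (limma, adjusted p = 0.108 without it and 0.0232 with it). In every KCl experiment, the cap and the cortex were higher than the meristem, and the meristem was higher than the vascular tissue.

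pp_243545 had the reverse order between cap and meristem (F test, adjusted p = 0.0379 without the block and 0.00149 with it, limma). It was lower in the cap, with a difference of -2.02 ± 0.63 (SE; adjusted p = 0.0140), and higher in the meristem, at 1.63 ± 0.63 (adjusted p = 0.0665, and 0.00762 with the block). The meristem was its highest area in all 3 KCl experiments. pp_227825 was higher in the cap, at 1.23 ± 0.36 (adjusted p = 0.0105, limma), and the cap was its highest area in all 3 KCl experiments. For pp_168591 the adjusted p of limma's F test was 0.382 without the block and 0.0244 with it, and the cortex was its highest area in each KCl experiment.

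With the block, the transcripts called higher in the cap included pp_123611 at 2.44 ± 0.52, pp_78343 at 2.25 ± 0.54, pp_99901 at 2.15 ± 0.49 and pp_95002 at 2.10 ± 0.51 (SE, log2 scale). The same 4 were called lower in the cortex, at -1.71 ± 0.52, -1.77 ± 0.54, -1.57 ± 0.49 and -1.76 ± 0.51 in the same order. These lower calls did not hold elsewhere: in the cortex edgeR with the block called 0 of the 40 lower, and so did limma with the block without KCl experiment 2 or without KCl experiment 3, against 5 lower with all KCl libraries. The 5 called lower in the cap were pp_56212, pp_243545, pp_14395, pp_221956 and pp_84930, with differences of -2.47, -2.02, -1.37, -0.78 and -0.74. pp_56212 had 5.58 CPM in the cap, against 44.9, 39.8 and 79.7 CPM in meristem, cortex and vascular tissue of KCl experiment 1. In KCl experiment 3 it had 5.89 CPM in the cap, against 138, 98.8 and 139 CPM in the same areas.

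The cap was the area with the highest KCl mean for 8 of the 8 transcripts that were high in KCl experiment 1 only, and for 11 of the 15 that were high in experiments 1 and 2. It was so for 4 of the 7 that were high in experiments 1 and 3 and for 3 of the 5 that were high in experiments 2 and 3. Of the 3 counted as high in no KCl experiment it was so for 1. It was so for 0 of the 2 that were high in all 3 KCl experiments, both of which had the highest KCl mean in the cortex. A share over all transcripts is not given for these means. Within experiments, the cap was above each other area for 28 of the 40 in KCl experiment 1, 12 in KCl experiment 2 and 19 in KCl experiment 3, with transcripts without a read in any area counted for none. Over all transcripts the cap was highest for 38.7%, 36.3% and 38.7% in the same experiments.

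**Figure D4:**
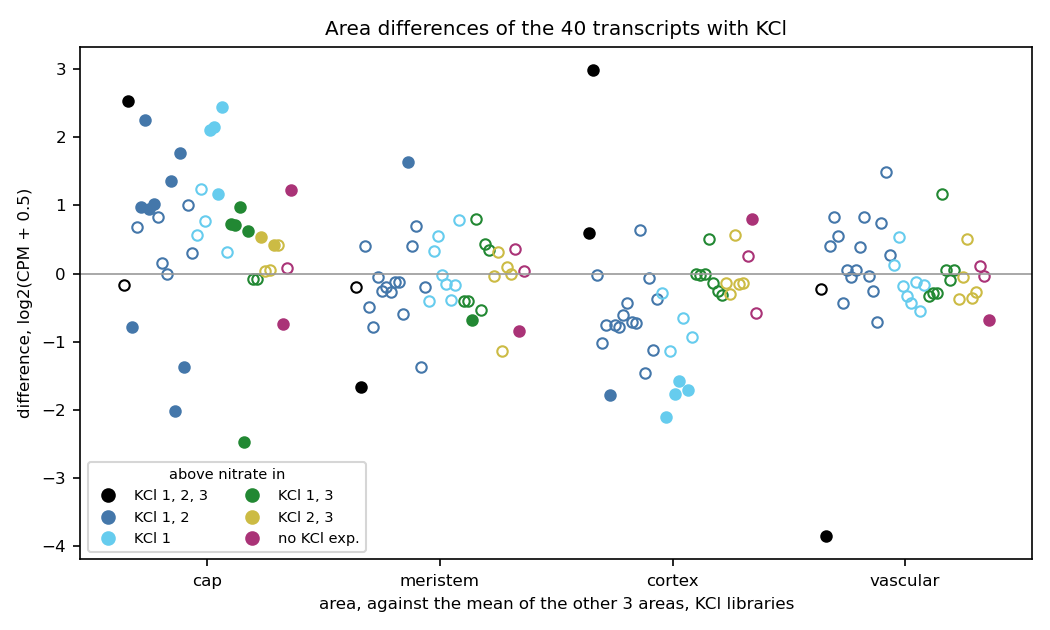
Difference of each area from the mean of the other areas in the KCl libraries for the 40 transcripts, on the log2 scale, with filled points where the limma test with the experiment as a block had an adjusted p below 0.05 and colours for the KCl experiments in which a transcript was high. Most points of the cap lie above 0 (31 of 40) and most of the cortex below it (7 of 40 above).

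Transcripts that were high in the same KCl experiments mostly followed each other over the 24 libraries. The median Pearson correlation of log2(CPM + 0.5) between pairs was 0.918 in the group of KCl experiment 1 only, 0.890 for experiments 1 and 2, 0.966 for experiments 1 and 3 and 0.935 for experiments 2 and 3, beside 0.532 over all pairs of the 40 (-0.347 to 0.999). The lowest correlation among those high in experiments 1 and 2 was 0.510. The 2 high in all KCl experiments correlated at 0.820, and the 3 high in none at a median of 0.279 (0.194 to 0.414). The pairs share libraries and sets of root tips, and the groups were formed on the same values, so these correlations are a description. Among the 40 were 4 runs of ID numbers within 5 of each other, with 9 transcripts. These were pp_105642 with pp_105644, pp_148763 with pp_148764, pp_231920 with pp_231921, and pp_250916 with pp_250918 and pp_250919. Their lowest correlations were 0.990, 0.993, 0.989 and 0.990. If such IDs are copies or parts of a gene, reads may be split among them, and the 40 are then fewer than 40 independent items, which was not tested.

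Transcripts near the limit of the rule looked much like those inside it. Rank 39, pp_239972, ranged from 0.0194 to 13.8 CPM with nitrate around 1.51 CPM, against 178, 46.3, 65.1 and 115 CPM in cap, meristem, cortex and vascular tissue of KCl experiment 1. In experiment 2 it had 7.36, 13.4, 11.4 and 78.5 CPM, and in experiment 3 it had 19.7, 0.575, 0.837 and 6.21 CPM. Its least negative change was -1.92, in the vascular tissue. Rank 40, pp_231920, ranged from 0.0694 to 3.68 CPM with nitrate, against 108, 65.1, 55.2 and 35.1 CPM in KCl experiment 1, 10.2, 7.18, 7.43 and 12.8 CPM in experiment 2 and 0.0473, 0.0719, 0 and 0.779 CPM in experiment 3. Its least negative change was -1.89.

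Just outside were pp_64761 (rank 41) and pp_151084 (rank 42), both at -1.88. pp_64761 has the ID number next to pp_64760 and, like it, had no read in any nitrate library. With KCl experiments 1, 2 and 3 it had 46.8, 94.8 and 36.6 CPM in the cap, 17.8, 8.07 and 0.898 CPM in the meristem, 55.6, 101 and 64.8 CPM in the cortex, and 3.36, 1.47 and 0.326 CPM in the vascular tissue. pp_151084 ranged from 0.678 to 6.81 CPM with nitrate, against 60.7, 62.2, 39.3 and 27.1 CPM in cap, meristem, cortex and vascular tissue of KCl experiment 1, 21.7, 14.9, 11.6 and 21.0 CPM in experiment 2 and 4.92, 12.6, 8.98 and 15.4 CPM in experiment 3. For both transcripts the nitrate and KCl libraries did not overlap in any area, which holds for only 6 of the 40 inside the limit.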

How the data were processed

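RNA was amplified with a low-input cDNA kit and sequenced as paired reads of 150 bp, per the labels. The submitters' processing notes list bcl2fastq and BWA with no version. How reads were counted and scaled, and on which reference, is something the sources used here do not give. The values as deposited are a signal, the read counts as scaled by the authors, who called it CPM. Column totals of 786966 to 1173829 show a scaling beyond the library total, and tests planned for plain CPM were kept. In every column 100% of values were whole multiples of a single read (tolerance 0.02 reads), which gave 45262154 to 51517525 reads per library.

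Tests were run with limma 3.58.1 (R 4.3.3) on log2(CPM + 0.5), using a variance trend and the Benjamini-Hochberg adjustment over 51044 transcripts that reached 1 CPM in 3 libraries or more (167 failed). As an alternative, the quasi-likelihood test of edgeR 4.0.16 used the recovered reads. It called 80 transcripts lower with nitrate in cap, 9 in meristem, 12 in cortex and 14 in vascular tissue, where limma called 109, 21, 24 and 18. Nitrate minus KCl used all 24 libraries with no term for the experiment, so the 4 areas of an experiment counted as independent. Differences between areas used the 12 KCl libraries, without and with the experiment number as a block. Scripts were tested on simulated data. Nothing says that experiments were separate cultures, so a p-value measures only a spread between libraries that may be technical. All 24 replicate pairs differed by more than sampling noise (chi-square per transcript 34.0 to 164).

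Whether experiment numbers pair libraries was decided before calls were compared, from correlated deviations from group means. Between areas of a solution all 36 same-numbered pairs were over 0.1 (0.279 to 0.694), so the number pairs areas within a solution. Between nitrate and KCl 6 of 12 were over 0.1 (-0.04 to 0.30), which leaves a pairing across solutions unsettled. Those of experiment 1 were 0.103 to 0.298, in every area above the highest correlation with another number. Those of experiment 3 were -0.04 to 0.01. The main fit of nitrate against KCl used no such pairing.

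The transcripts and the groups described here were chosen with earlier results of these data known. Values per library are given for ranks 1 to 12, the highest KCl mean in each area, the 4 smallest p of the F test between areas, and ranks 39 to 42. Others named were chosen after their values were seen.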

Additional observations from a re-analysis of the deposited data

How the results depend on the processing

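The counts of the 40 called for differences between areas with KCl depended on the replicate block: 18 by the F test, 23 in cap, 4 in meristem, 8 in cortex and 2 in vascular tissue with it, and 3, 3, 0, 1 and 1 without it. edgeR with the replicate block gave 19, 23, 7, 2 and 5 in the same order (78.5%, 73.7%, 36.8%, 20.2% and 52.4% of all tested). The fit of all 24 libraries gave 2 in the meristem (40.7%). Leaving out each KCl experiment without the block gave, in the same order, 2 to 6, 3 to 6, 0 to 1, 0 each time and 1 to 2. The shares of all tested were 52.8% to 62.7%, 57% to 64.5%, 7.39% to 25.3%, 1.96% to 9.28% and 31.8% to 35.2%. With the block, leaving out experiment 1, 2 or 3 gave 15, 17 or 6 by the F test (69.6%, 63.4% and 63.7% of all). It gave 13, 20 or 13 in the cap (69.4%, 66% and 64.5%), and 3, 0 or 0 lower in the cortex (5.62%, 1.77% and 2.03%). The counts lower with nitrate were 2, 3, 2 and 1 in cap, meristem, cortex and vascular tissue. With the replicate block they were 8, 5, 5 and 4 (0.333%, 0.0588%, 0.0744% and 0.0744% of all tested). That block gave nitrate and KCl libraries of the same number a shared term, although a pairing across solutions is unsettled. edgeR called 1 in the meristem (0.0176% of all), and the pseudocount of 0.1 gave 2 in the vascular tissue (0.0353%). Leaving out single experiments gave 2 to 18 in cap, 1 to 8 in meristem, 2 to 9 in cortex and 1 to 8 in vascular tissue. Of all tested, 0.106% to 2.52%, 0.0274% to 0.098%, 0.0353% to 0.131% and 0.0255% to 0.114% were called lower, in the same order. Both the 18 in cap and the 2.52% were without KCl experiment 3. The rule kept 18 to 34 of the 40 without an experiment. The median number of 40 lower in all 4 areas in unused experiments was 19, and 12 with a pseudocount of 0.1. With no margin 6 of the 40 were high in all 3 KCl experiments, with a margin of 1 it was 2 and with a margin of 2 it was 1. Of 360 recomputed least negative changes, 348 moved by less than the spread between replicates and 11 by more, 9 of them with a pseudocount of 0.1, and that of pp_247834 ranged from -3.06 to 0.25 over the omissions, with 0.25 without KCl experiment 1. Leaving out 1 of 3 replicates moves a change by less than this spread by construction, unless another area becomes the least negative. The count of 348 is therefore no sign of stability. The block without single experiments, edgeR with the block and the margins of 0 and 2 were chosen after seeing the data. The cause of these differences was not tested. There are 3 libraries per group, whose 4 areas go together, and for transcripts with no read in the nitrate libraries of an area the depth allows only a bound on the fold. Another scaling moved the median change of all transcripts by at most 0.04 on the log2 scale.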

Other observations

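Transcripts whose ID numbers lie within 5 of a member of the 40 were read as well. There were 140 such IDs beside 29 of the 40, and 55 of them (39.3%) were lower with nitrate in all 4 areas, beside 14.1% of all transcripts. The median over the 140 of the mean change was -0.13, beside 0.005 over all transcripts. Of the 140, 21 had a correlation of at least 0.9 with the nearest of the 40 over the 24 libraries, a value chosen after the data were seen. Some neighbours went the other way. pp_164027 had a mean change of 3.00 and a correlation of -0.907 with pp_164031. For pp_233637 these were 2.12 and -0.949 with pp_233639, and for pp_128226 they were 1.76 and -0.804 with pp_128229. pp_105643, between pp_105642 and pp_105644, ranked 55 by the rule. Whether neighbouring IDs share a gene or reads was not tested, and no sequence was used here.

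The mirrored list of the 40 transcripts most raised with nitrate in all 4 areas had a different spread. Its median standard deviation between experiments was 0.79 with nitrate and 0.35 with KCl on the log2 scale. Its groups did not overlap in any area for 10 of 40, beside 96 of all 51211 transcripts that were higher with nitrate in this way. That list was also chosen on these values, so nothing is read from its count. It shares all 24 libraries with the list described here, and the difference between the lists was not tested.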
